A study of Homo sapiens with 10 samples.

Results

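The genes described here build the contact between a basal keratinocyte and its basement membrane, or cut and reshape that matrix. They are 48 named genes: integrins, hemidesmosome parts, laminins, basement membrane collagens, provisional matrix proteins, metalloproteinases with their inhibitors, and the plasminogen system. They were chosen by gene symbol, with earlier results of these data known, so the shares of them that passed are not independent of these data. All 48 were found among the 22003 features of the count table, and all 48 were among the 14799 features with enough counts to be tested. RNA was sequenced in 10 libraries of wild-type HaCaT, an immortalised line of human skin keratinocytes. The 4 groups were irradiated cells given LBP (n = 3), irradiated cells given vehicle (n = 3), non-irradiated cells given LBP (n = 2) and non-irradiated cells given vehicle (n = 2). LBP is a polysaccharide-glycoprotein preparation from the goji berry plant Lycium barbarum. It or vehicle was given 24 h ahead of a single 12 Gy dose, and RNA was taken 3 h after irradiation. The dose of LBP is not in the labels, and all groups come from 1 cell line. The labels call the replicates repeated experiments without saying whether each was a separate culture, so the p-values measure the spread between these libraries, which may be partly technical.

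Basal keratinocytes are held to the basement membrane by hemidesmosomes, in which the integrin made of ITGA6 and ITGB4 joins a laminin that holds the LAMA3 and LAMB3 chains to keratin filaments through plectin (PLEC) and dystonin (DST). When the epidermis is wounded, keratinocytes move over a provisional matrix of fibronectin and tenascin-C, using other integrins. Metalloproteinases and urokinase-generated plasmin cut this matrix, and TIMP proteins and serpins restrain them.

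Libraries held 31830506 to 62986831 counts. HMOX1, an antioxidant enzyme gene with a large LBP response in these cells, had 113, 74.9 and 88.7 CPM (counts scaled to library size by edgeR's TMM method) in irradiated LBP cells, against 4.27, 4.17 and 6.16 CPM in irradiated vehicle cells. It had 103 and 127 CPM in LBP cells, against 3.55 and 4.84 CPM in vehicle cells. HMOX1 was picked for its LBP response in an earlier report on these data, so its values are no independent check of the labels. All 12 keratinocyte markers examined, TP63 among them, were detected, with a summed level of 14739 to 19121 CPM. That sum was 17071 to 17982 CPM in irradiated LBP cells, 14739 to 16989 CPM in irradiated vehicle cells, 18717 to 19121 CPM in LBP cells and 15651 to 16339 CPM in vehicle cells. It was thus higher in the LBP groups in every library, and its part in the results below was not tested. Markers of other cell types were low: summed fibroblast markers reached 5.06 to 7.46 CPM, with DCN at 0 in every library, endothelial markers 1.66 to 3.61 CPM, with PECAM1 and TEK at 0, melanocyte markers 6.66 to 9.65 CPM, with TYR at 0, and leukocyte markers 14.1 to 21.1 CPM. The melanocyte sum was 6.66 to 6.99 CPM in irradiated LBP cells, 8.11 to 9.65 CPM in irradiated vehicle cells, 7.36 to 7.61 CPM in LBP cells and 7.99 to 8.13 CPM in vehicle cells, so it was lower with LBP in both settings. The leukocyte sum was 16.9 to 21.1 CPM in irradiated LBP cells, against 14.3 to 16.5 CPM in irradiated vehicle cells. It overlapped in non-irradiated cells, at 14.1 to 18.3 CPM with LBP and 14.6 to 15.6 CPM with vehicle. MITF (mean 6.84 CPM) made up most of the melanocyte sum, and CD68 (mean 14.0 CPM) most of the leukocyte sum. The labels name the source as mucosa. Markers of simple and mucosal epithelium, led by KRT8, summed to 6729 to 7558 CPM in irradiated LBP cells, 7661 to 8621 CPM in irradiated vehicle cells, 7533 to 8650.4 CPM in LBP cells and 8368 to 8715 CPM in vehicle cells, lower with LBP in irradiated cells and overlapping in non-irradiated cells. The part of these sums in the results was not tested either.

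The 48 genes spanned a wide range of levels per length of transcript. On the deposited FPKM scale, which divides counts by gene length and library size, 11 genes had a median over the 10 libraries above 100, 35 lay between 1 and 100, and 2 were below 1. The highest were THBS1, a thrombospondin of the provisional matrix, at a median of 508 FPKM, and FN1, fibronectin, at 391 FPKM. CD44, a hyaluronan receptor, followed at 245 FPKM, and the laminin chains LAMB3 and LAMA3 at 168 and 132 FPKM. Within the laminins the other chains were lower: LAMC1 had a median of 40.8 FPKM, LAMB1 28.2, LAMA5 16.1 and LAMB2 3.95. Among the integrin subunits, ITGB1 was highest at 111 FPKM and ITGA5, the fibronectin-binding alpha chain, lowest at 8.66 FPKM. The metalloproteinases were mostly low, with MMP9 at 5.74 FPKM and MMP3 at 0.260 FPKM, except MMP14, the membrane-anchored collagenase, at 101 FPKM. NID1, nidogen, which links laminin to type IV collagen, was lowest at 0.240 FPKM. Raw counts of the 48 genes ran from 16 to 292326 per library, so MMP3 and NID1 have the widest counting error.

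**Figure D1:**
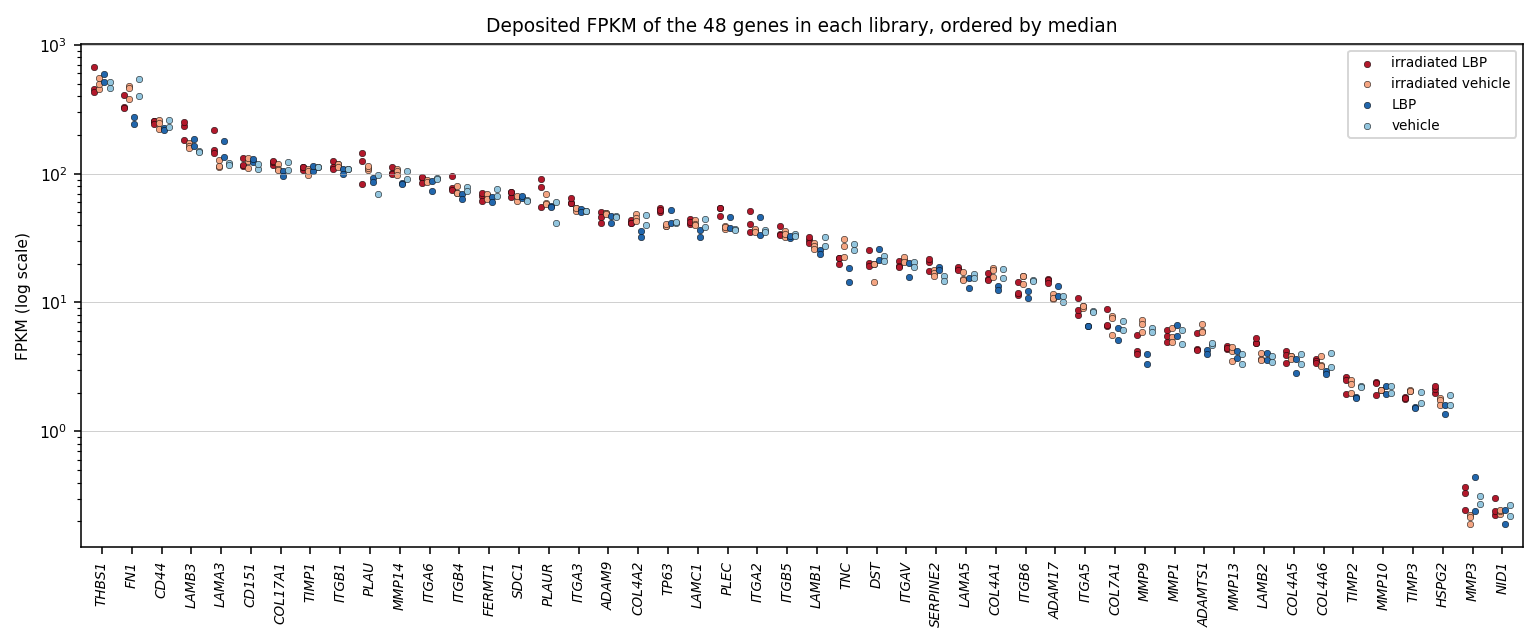
Deposited FPKM (log axis) of the 48 genes, ordered by their median over the 10 libraries, with 1 point per library coloured by group. THBS1 and FN1 lie highest, at medians of 508 and 391, and NID1 and MMP3 lowest, below 1.

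In irradiated cells, LBP was followed by modestly higher levels of the laminin beta chains LAMB3 and LAMB2, plectin, TP63 and ADAM17. LAMB3 and LAMB2, laminin beta chains, PLEC, the keratin linker of the hemidesmosome, TP63, the transcription factor that maintains basal keratinocytes, and ADAM17, a sheddase of membrane growth factors, each rose 1.33- to 1.38-fold. These 5 of 48 genes, or 10.4%, passed an adjusted p under 0.05 by edgeR's quasi-likelihood test, where 4.36% of all features did, and by that test 0 of the 48 fell. MMP9 was called lower by DESeq2, without a filter, with a length correction and without irradiated LBP replicate 3. Over all features 2.79% rose and 1.57% fell. Of the 48 genes, 36 had a positive log2 fold change and 12 a negative one, with a median of 0.087, against 0.005 over all features tested. The 3 irradiated LBP libraries lay entirely above the 3 irradiated vehicle libraries for 14 genes and entirely below for 2, where 13.9% and 13.6% of all features were so ordered. In bulk RNA, fewer cells of a type and less RNA per cell cannot be told apart. Without irradiated vehicle replicate 1 only LAMB2 passed, without replicate 2 only ADAM17, and without replicate 3 edgeR called 0, with 14 at an unadjusted p under 0.05. Without irradiated LBP replicate 1, LAMB2 alone of the 5 passed, and 2 other genes passed as lower, ITGB6 (-0.39, adjusted p = 0.047) and ADAMTS1 (-0.55, adjusted p = 0.015).

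In non-irradiated cells LBP was followed by a lower level of FN1, fibronectin, which fell by 0.80 on the log2 scale. It was the only one of the 48 genes to pass the test, 2.08% of them, where 0.804% of all features passed and 0.264% fell. Without vehicle replicate 1, or without either LBP library, edgeR called 0, with 5, 10 and 10 genes at an unadjusted p under 0.05. The median log2 fold change over the 48 genes was -0.07, against 0.010 over all features, with 22 positive and 26 negative. That median was -0.037 with a length trend, described further on, removed from each library, -0.028 without vehicle replicate 1, 0.012 without LBP replicate 2 and -0.15 without LBP replicate 1. The LBP libraries lay above both vehicle libraries for 10 genes and below for 15, but with 2 libraries a group 23.2% and 22.3% of all features were so ordered. The difference between the settings, tested as an interaction further on, passed for none of the 48.

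TP63 (GRCh38 chromosome 3, 189631416 to 189897279, plus strand) had 285, 253 and 270.4 CPM in irradiated LBP cells, against 197, 203 and 208 CPM in irradiated vehicle cells. It had 279 and 218 CPM in LBP cells, against 209.6 and 215 CPM in vehicle cells. The LBP libraries were higher in both settings, though the second LBP library of non-irradiated cells lay only just above the vehicle libraries. The log2 fold change was 0.41 ± 0.08 (SE; adjusted p = 0.023) in irradiated cells and 0.23 ± 0.10 (adjusted p = 0.37) in non-irradiated cells.

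Among the 9 integrin genes edgeR called 0 with LBP in either setting, with 2 and 1 at an unadjusted p under 0.05 in irradiated and non-irradiated cells; DESeq2 called 1 in irradiated cells, ITGA3. Their log2 fold changes ran from -0.27 to 0.24 in irradiated cells and from -0.31 to 0.20 in non-irradiated cells. ITGA3, the alpha chain that pairs with ITGB1 to bind laminin, had 331, 319.7 and 359.8 CPM in irradiated LBP cells, against 290.5, 285 and 297 CPM in irradiated vehicle cells (log2 fold change 0.21 ± 0.06, adjusted p = 0.069). ITGA6, the alpha chain of the hemidesmosome integrin, had log2 fold changes of 0.06 ± 0.07 and -0.11 ± 0.09 in irradiated and non-irradiated cells. Its partner ITGB4 had 0.17 ± 0.09 and -0.14 ± 0.11. ITGB6, which is induced in migrating keratinocytes, had -0.27 ± 0.10 (adjusted p = 0.16) and -0.23 ± 0.13 (adjusted p = 0.45). Neither hemidesmosome integrin chain passed the test with LBP, while LAMB3 of their laminin ligand and plectin passed in irradiated cells; the difference between the genes was not tested.

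Of the 5 hemidesmosome and integrin partner genes, PLEC passed. It had 927, 762 and 903 CPM in irradiated LBP cells, against 613, 657 and 639 CPM in irradiated vehicle cells, so the groups did not overlap. The log2 fold change was 0.44 ± 0.09 (adjusted p = 0.020). In non-irradiated cells PLEC had 792 and 653 CPM with LBP, against 612 and 606 CPM with vehicle (0.25 ± 0.11, adjusted p = 0.35). DST, the other keratin linker, had 358, 278 and 276 CPM in irradiated LBP cells, against 267, 279 and 195 CPM in irradiated vehicle cells, with overlapping groups (0.30 ± 0.14, adjusted p = 0.23). COL17A1, the transmembrane collagen of the hemidesmosome, had log2 fold changes of 0.14 ± 0.07 and -0.11 ± 0.08. PLEC lies on chromosome 8, 143915147 to 143976734, minus strand.

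Of the 6 laminin chains 2 rose in irradiated cells, and all 6 fold changes were positive there. In non-irradiated cells 3 were positive and 3 negative, and edgeR and DESeq2 called 0, with 3 at an unadjusted p under 0.05. LAMB3 (chromosome 1, 209614870 to 209652466, minus strand) had 1108, 824 and 1166 CPM in irradiated LBP cells, against 767, 762 and 719.9 CPM in irradiated vehicle cells. The lowest irradiated LBP library still lay above every irradiated vehicle library, and the log2 fold change was 0.46 ± 0.11 (adjusted p = 0.036). In non-irradiated cells LAMB3 had 877 and 779.9 CPM with LBP, against 685 and 668 CPM with vehicle (0.29 ± 0.13, adjusted p = 0.36). LAMB2 (chromosome 3, 49121114 to 49133118, minus strand) was much lower, at 32.2, 30.9 and 34.8 CPM in irradiated LBP cells, against 25.6, 23.9 and 23.1 CPM in irradiated vehicle cells (0.44 ± 0.08, adjusted p = 0.016). In non-irradiated cells it had 27.3 and 24.1 CPM with LBP, against 25 and 22.3 CPM with vehicle, and the groups overlapped (0.12 ± 0.10, adjusted p = 0.64).

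LAMA3, the alpha chain that pairs with LAMB3, was above its vehicle libraries in every LBP library. It had 1486, 999 and 983 CPM in irradiated LBP cells, against 812, 862 and 775 CPM in irradiated vehicle cells, and 1245 and 951 CPM in LBP cells, against 809 and 809 CPM in vehicle cells. The first LBP library was the highest in both settings, and the adjusted p was 0.071 in irradiated cells (log2 fold change 0.50 ± 0.14) and 0.30 in non-irradiated cells (0.44 ± 0.18). LAMA5 and LAMB1 were above zero in irradiated cells (0.21 ± 0.07 and 0.20 ± 0.08) but not past the test, and LAMC1 was near zero (0.04 ± 0.07).

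Of the 5 collagens edgeR and DESeq2 called 0 in either setting, with 0 at an unadjusted p under 0.05 in irradiated cells and 3 in non-irradiated cells. In non-irradiated cells all 5 were negative, led by the paired type IV chains COL4A1 (-0.33 ± 0.11, adjusted p = 0.20) and COL4A2 (-0.30 ± 0.09, adjusted p = 0.19), which share a bidirectional promoter region. In irradiated cells they had -0.13 ± 0.09 and -0.10 ± 0.08. HSPG2, perlecan, a heparan sulphate proteoglycan of the basement membrane, had 33.1, 34.1 and 37.3 CPM in irradiated LBP cells, against 28.7, 28.8 and 26.1 CPM in irradiated vehicle cells (0.32 ± 0.09, adjusted p = 0.068; DESeq2 called it), and in non-irradiated cells the log2 fold change was -0.18 ± 0.11. NID1 and the glycan receptors CD44 and SDC1 did not pass in either.

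Of the provisional matrix genes, FN1 (chromosome 2, 215360440 to 215436172, minus strand) had 2576 and 2354 CPM in LBP cells, against 4941 and 3619 CPM in vehicle cells. Both LBP libraries lay below both vehicle libraries, and the log2 fold change was -0.80 ± 0.16 (adjusted p = 0.039). In irradiated cells FN1 had 3112, 2911 and 3787 CPM with LBP, against 4302, 4282 and 3528 CPM with vehicle; the groups overlapped (-0.30 ± 0.13, adjusted p = 0.19). TNC, tenascin-C (chromosome 9, 115019578 to 115118257, minus strand), had 171 and 137 CPM in LBP cells, against 268 and 209.8 CPM in vehicle cells (-0.63 ± 0.15, adjusted p = 0.090). DESeq2 called it (adjusted p = 0.00071), as did edgeR without a filter (0.026), with the compared groups alone (0.023) and with a replicate block (0.031). In irradiated cells TNC had 211, 177 and 207 CPM with LBP, against 268, 262 and 210.1 CPM with vehicle (-0.31 ± 0.12, adjusted p = 0.16). THBS1 had opposing library values, with 6145, 3911 and 3859 CPM in irradiated LBP cells, against 3909, 4919.9 and 4420.3 CPM in irradiated vehicle cells (0.07 ± 0.16).

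Of the 6 matrix metalloproteinases edgeR called 0 in either setting, with 1 at an unadjusted p under 0.05 in each, MMP9, which DESeq2 called in both. MMP9, a gelatinase that degrades type IV collagen, was lower in every LBP library than in the vehicle libraries of the same setting. It (chromosome 20, 46008908 to 46016561, plus strand) had 11.5, 10.3 and 15.1 CPM in irradiated LBP cells, against 19.0, 18.2 and 15.7 CPM in irradiated vehicle cells, and the log2 fold change was -0.51 ± 0.14 (adjusted p = 0.056). In non-irradiated cells it had 9.20 and 11 CPM with LBP, against 16.7 and 15.6 CPM with vehicle (-0.68 ± 0.17, adjusted p = 0.11). The collagenases MMP1 and MMP13 and the stromelysin MMP10 had log2 fold changes of 0.00 to 0.14 in irradiated cells. MMP3, another stromelysin, had 0.715, 0.770 and 0.521 CPM in irradiated LBP cells, against 0.393, 0.487 and 0.459 CPM in irradiated vehicle cells, on counts as low as 16 in a library. MMP9 shares 18.41% of its exon bases with an antisense transcript, and the strand of the counts is not given in the sources used here. On the opposite strand, HSPG2 shares 11.72% of its exon bases with LDLRAD2, and PLAU 31.05% with C10orf55. ITGB6 shares 20.61% with AC092153.1 on the same strand.

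Of the 3 ADAM and ADAMTS proteases, ADAM17 (chromosome 2, 9488486 to 9556732, minus strand) passed. It had 77.4, 71.1 and 71.0 CPM in irradiated LBP cells, against 51.5, 58.3 and 53.4 CPM in irradiated vehicle cells, and the groups stood well apart (0.43 ± 0.08, adjusted p = 0.017). In non-irradiated cells it had 68.5 and 56.9 CPM with LBP, against 53.8 and 50.2 CPM with vehicle (0.27 ± 0.10, adjusted p = 0.27). ADAM17 shares 12.31% of its exon bases with IAH1 on the opposite strand, whose log2 fold change in irradiated cells was 0.04 ± 0.08. ADAM9 did not differ beyond its spread (-0.04 ± 0.07). ADAMTS1, which cleaves proteoglycans, had -0.35 ± 0.13 (adjusted p = 0.14). Of TIMP1, TIMP2 and TIMP3, the metalloproteinase inhibitors, edgeR and DESeq2 called 0 in either setting, with 0 at an unadjusted p under 0.05.

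The plasminogen genes PLAU, urokinase, and PLAUR, its receptor, did not pass with LBP, with log2 fold changes of 0.11 ± 0.17 and 0.29 ± 0.18 in irradiated cells and wide spread between libraries. SERPINE2, protease nexin-1 (chromosome 2, 223975112 to 224039319, minus strand), had 53.8, 43.1 and 56.2 CPM in irradiated LBP cells, against 44.2, 43.4 and 40.5 CPM in irradiated vehicle cells (0.26 ± 0.09, adjusted p = 0.13). In non-irradiated cells it had 49.4 and 47.2 CPM with LBP, against 40.6 and 37.4 CPM with vehicle (0.31 ± 0.12, adjusted p = 0.27).

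**Figure D2:**
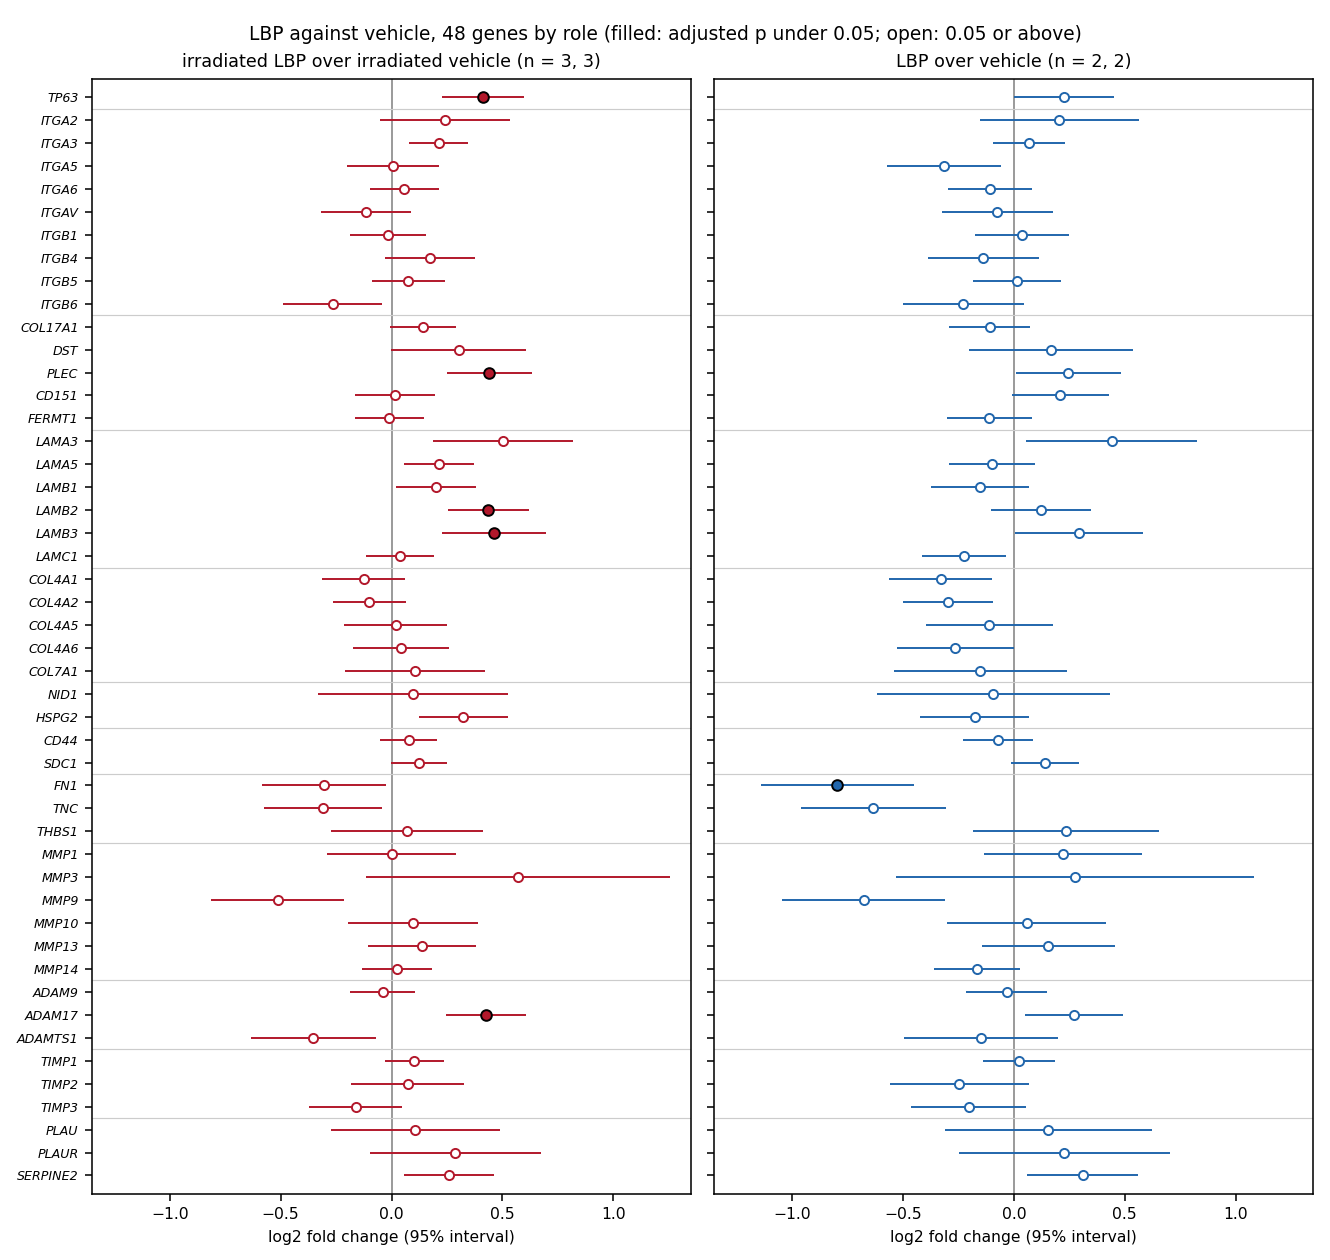
Log2 fold change with LBP against vehicle for the 48 genes grouped by role, in irradiated cells and in non-irradiated cells, with 95% intervals from edgeR; filled points passed an adjusted p under 0.05. Filled points are LAMB3, LAMB2, PLEC, TP63 and ADAM17 in irradiated cells and FN1 in non-irradiated cells.

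Averaged over irradiated and non-irradiated cells, LBP was followed by higher laminin chains LAMA3, LAMB3 and LAMB2 and by lower fibronectin, tenascin-C and MMP9. This averaged contrast was added after the data had been seen. It called 10 of the 48 genes, or 20.8%, against 6.93% of all features, with 7 higher and 3 lower, where 3.99% of all features rose and 2.93% fell. The higher genes were TP63, PLEC, LAMA3, LAMB3, LAMB2, ADAM17 and SERPINE2, with log2 fold changes of 0.28 to 0.47. The lower genes were FN1 (-0.55 ± 0.10, adjusted p = 0.0093), TNC (-0.47 ± 0.10, adjusted p = 0.015) and MMP9 (-0.60 ± 0.11, adjusted p = 0.0088). The median over the 48 genes was 0.021, against 0.007 over all features, and it was negative without LBP replicate 1 (-0.014), without vehicle replicate 2 (-0.0056) and with limma on FPKM + 1 (-0.011) or FPKM + 0.1 (-0.022). All 5 LBP libraries lay above all 5 vehicle libraries for TP63, LAMA3 and LAMB3, and below for MMP9, where 4.55% and 3.26% of all features were so ordered. FN1 and MMP9 stayed below an adjusted p of 0.05 under all 17 alternatives run, while the SERPINE2 call was lost under 11 of them, those of LAMA3 and LAMB2 under 8 and that of LAMB3 under 6. Without vehicle replicate 1 only MMP9, FN1 and ADAM17 passed, and without vehicle replicate 2 or LBP replicate 1 only MMP9, FN1 and TNC, so that no laminin chain passed in these 3 fits. DESeq2 called 13 genes, 7 higher and 6 lower, the lower ones adding COL4A1, COL4A2 and ITGB6. COL4A1 and COL4A2 were also called lower with a replicate block and with a length correction.

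**Figure D3:**
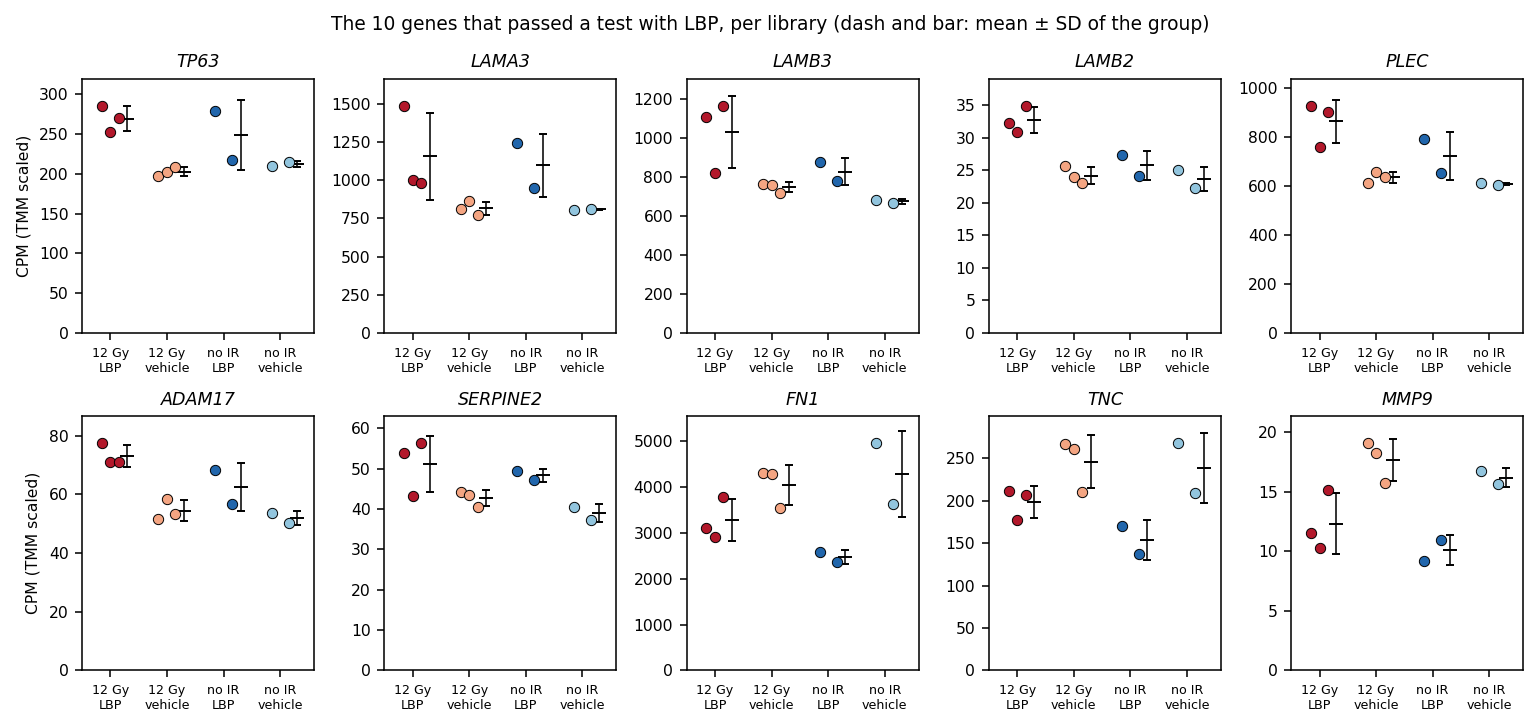
CPM of the 10 genes in each library, by group (n = 3, 3, 2, 2), with dash and bar giving the group's mean ± SD; no IR means non-irradiated. LAMA3 reached 1486 CPM in the first irradiated LBP library, against at most 862 CPM in irradiated vehicle cells, and FN1 was 2576 and 2354 CPM in LBP cells, against 4941 and 3619 CPM in vehicle cells.

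Sequence ahead of the start sites is shown for LAMA3, LAMB3 and SERPINE2, and for FN1 and TNC, which were lower in the averaged contrast. LAMA3, LAMB3 and SERPINE2 are the only genes higher in that contrast with a match to a motif given below. The promoters are from RefSeq (GRCh38.p14) and are read 5′ to 3′ on the gene's strand. Of the 48 genes 36 matched an entry, with 49 promoters. Capitals mark matches to the AP-1 motif TGANTCA or to the NRF2 and small MAF motif TGACNNNGC, searched on both strands. Within the 250 bases before each start, the longest stretch that no GENCODE exon covers is printed, which is 209 bases for LAMB3 (chr1:209652467-209652675, minus strand, the farthest upstream of 3 starts), 250 for SERPINE2 (chr2:224031479-224031728, minus strand, the second of 2 starts), 80 for FN1 (chr2:215436173-215436252, minus strand) and 150 for TNC (chr9:115118258-115118407, minus strand). For LAMA3 each match is printed with 10 bases on either side (chr18:23872885-23872911 and chr18:23872941-23872967, plus strand), since exons of longer transcripts cover 180 of its 250 bases.
LAMA3 site 1: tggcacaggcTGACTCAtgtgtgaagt
LAMA3 site 2: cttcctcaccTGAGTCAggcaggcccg
LAMB3: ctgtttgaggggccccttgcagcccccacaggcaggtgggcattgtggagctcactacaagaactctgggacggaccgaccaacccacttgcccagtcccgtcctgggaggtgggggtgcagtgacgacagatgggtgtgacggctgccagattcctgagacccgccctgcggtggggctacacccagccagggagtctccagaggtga
SERPINE2: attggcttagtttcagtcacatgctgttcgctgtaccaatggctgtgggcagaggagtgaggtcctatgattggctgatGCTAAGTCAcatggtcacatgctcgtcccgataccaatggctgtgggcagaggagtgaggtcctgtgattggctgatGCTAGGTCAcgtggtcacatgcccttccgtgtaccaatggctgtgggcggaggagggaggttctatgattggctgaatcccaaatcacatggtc
FN1: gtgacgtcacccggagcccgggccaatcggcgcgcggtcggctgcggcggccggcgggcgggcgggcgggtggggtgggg
TNC: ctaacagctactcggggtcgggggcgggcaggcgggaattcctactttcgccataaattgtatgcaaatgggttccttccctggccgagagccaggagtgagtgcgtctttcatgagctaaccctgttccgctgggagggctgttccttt
The LAMA3 matches are AP-1 letters at -125 and -69 from the start, and that start lies inside the GENCODE gene, whose first base is 23689443. Another LAMB3 start has an AP-1 match at -67, and the printed LAMB3 stretch has none. In SERPINE2 the NRF2 and small MAF motif matches on the reverse strand at -171 and -94. FN1 and TNC hold neither motif. Of the other genes called in the averaged contrast, TP63, PLEC, LAMB2 and ADAM17, which were higher, and MMP9, which was lower, had no match. Which of them had a promoter entry is not given here. Whether a motif goes with the direction of change was not tested. Over the whole window of 250 bases before to 50 after a start, AP-1 matched 6 of the 49 promoters and 7.71% of the 35116 in the table, and the NRF2 and small MAF motif matched 8 of 49 and 13.3%. The p53 and p63 core, searched as CATG, 6 bases of any kind and CATG, matched 0 of 49 and 0.373%. In DST the AP-1 match lies inside an NRF2 and small MAF match. A match is a run of letters, not a shown binding site.

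Among 148 tested genes of the same pathways outside the 48, 9 passed with LBP in irradiated cells, 4 higher and 5 lower, or 6.08%, where 4.36% of all features passed. In non-irradiated cells 5 passed, 2 higher and 3 lower, or 3.38%, where 0.804% of all features passed. These lists, too, were chosen with earlier results of these data known. Of 26 tested focal adhesion and integrin signalling genes, 2 fell in irradiated cells and 2 in non-irradiated cells, and none rose. TLN2, a talin that ties integrins to actin, fell in both settings: it averaged 5.22 CPM in irradiated LBP cells and 8.62 CPM in irradiated vehicle cells (-0.73 ± 0.13, adjusted p = 0.013), and 5.27 CPM in LBP cells and 10.5 CPM in vehicle cells (-0.99 ± 0.16, adjusted p = 0.014). Of 18 tested collagen and laminin processing genes, 2 rose and 1 fell in irradiated cells. P4HA1, a subunit of collagen prolyl hydroxylase, rose in irradiated and non-irradiated cells (0.36 ± 0.08 and 0.52 ± 0.10, adjusted p = 0.031 in each), and TGM2, a matrix cross-linking transglutaminase, fell in both (-0.78 ± 0.15, adjusted p = 0.016, and -0.88 ± 0.18, adjusted p = 0.047). LOXL2, a lysyl oxidase, rose in irradiated cells (0.42 ± 0.11, adjusted p = 0.048). Of 17 plasminogen and serine protease genes 2 rose in irradiated cells, among them LRP1, a clearance receptor (0.62 ± 0.12, adjusted p = 0.020). Of 23 other metalloproteinase genes 1 fell, ADAM19 (-0.38 ± 0.08, adjusted p = 0.029). Of 17 other adhesion receptor genes edgeR called 0 in irradiated and in non-irradiated cells, with 3 and 0 at an unadjusted p under 0.05 and 2 and 0 by DESeq2. Of 20 other matrix components edgeR and DESeq2 called 0 in both, with 3 and 4 at an unadjusted p under 0.05. Of 27 regulators 1 fell in irradiated cells, BASP1 (-0.42 ± 0.06, adjusted p = 0.0022). The medians of these lists lay between -0.14 and 0.11 in both LBP comparisons, against 0.005 and 0.010 over all features.

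A dose of 12 Gy without LBP moved none of the 48 genes past the test. By edgeR 0 of 48 passed, where 0.439% of all features did, and 1 gene, ADAMTS1, had an unadjusted p under 0.05; DESeq2 called 0. ADAMTS1 had 33.9, 40.4 and 34.5 CPM in irradiated vehicle cells, against 27.4 and 28.7 CPM in vehicle cells (log2 fold change 0.37 ± 0.15, adjusted p = 0.64). The median over the 48 genes was 0.036, against 0.0019 over all features; it was 0.0056 without vehicle replicate 2, 0.085 without vehicle replicate 1 and 0.056 with the length trend removed. The groups did not overlap for 9 genes that were higher and 4 that were lower in irradiated cells, where 13.8% and 13.9% of all features were so ordered. The widest fold change was that of MMP3, -0.45 on counts that reached 41 at most. PLAU, urokinase, followed at 0.41 ± 0.20 (adjusted p = 0.74), with 278, 302 and 308 CPM in irradiated vehicle cells, against 186 and 261 CPM in vehicle cells.

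After LBP, 12 Gy was followed by higher values of most of the 48 genes, without any passing. By edgeR 0 of 48 passed, where 0.142% of all features did, 18 had an unadjusted p under 0.05, and DESeq2 called 2, ITGA5 and HSPG2. Without LBP replicate 2 those 18 genes became 4, and 33 of the 48 were positive; with each other library left out the count was 12 to 22. Of the 48 genes 42 had a positive log2 fold change and 6 a negative one, with a median of 0.185, against 0.0021 over all features. The 3 irradiated LBP libraries lay above both LBP libraries for 20 genes and below for none, where 14.0% of all features were so ordered in each direction. HSPG2 had 33.1, 34.1 and 37.3 CPM in irradiated LBP cells, against 26.9 and 23.3 CPM in LBP cells (0.47 ± 0.10, adjusted p = 0.15). ITGA5 had 40.1, 41.2 and 53.3 CPM in irradiated LBP cells, against 33.1 and 33.2 CPM in LBP cells (0.44 ± 0.11, adjusted p = 0.20). All 6 laminin chains and all 5 collagens were positive, with medians of 0.277 and 0.238, none past the test.

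**Figure D4:**
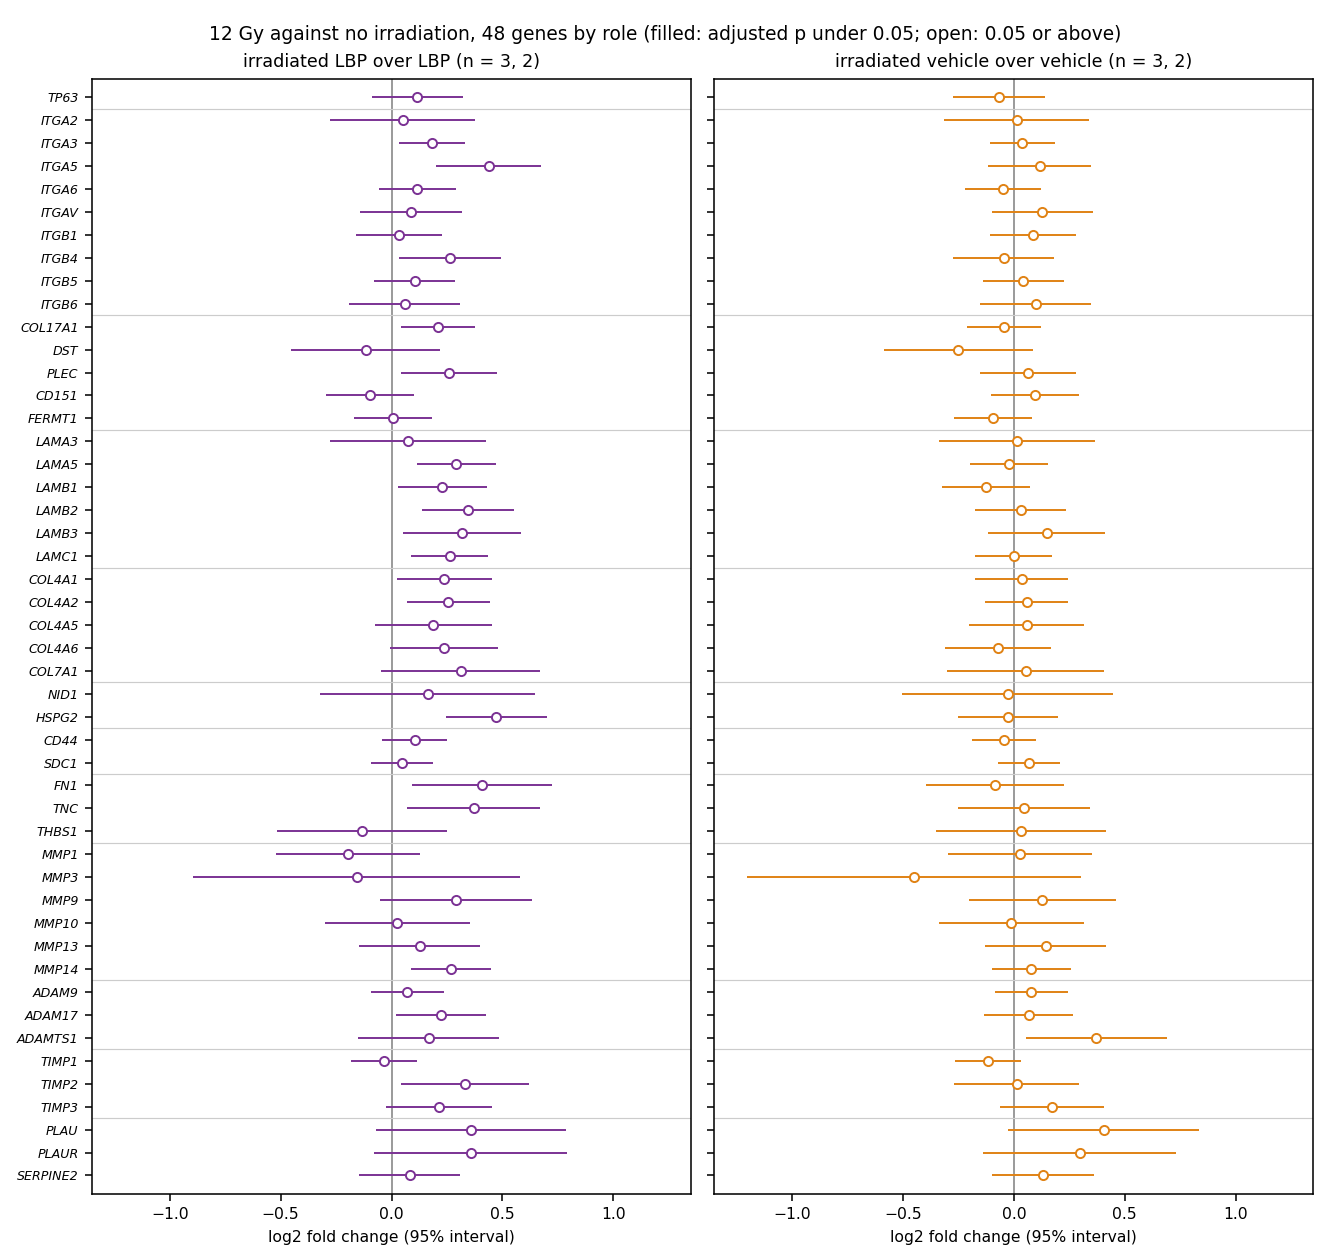
Log2 fold change with 12 Gy against no irradiation for the 48 genes grouped by role, after LBP and with vehicle, with 95% intervals from edgeR. After LBP 42 of 48 points lie above 0, and no gene passed an adjusted p under 0.05 in either.

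The level of longer relative to shorter transcripts differed between the libraries of this comparison. The genes have a median length of 5405 bases, above the upper quartile of all features, 5189 bases. Features above that quartile were lower relative to those below the lower quartile in the second LBP library (by 0.23 on the log2 scale, against 0.011 higher in the first LBP library and 0.12 higher, 0.075 higher and 0.021 lower in the 3 irradiated LBP libraries). With that length trend removed from each library, 41 of 48 genes were positive, 40 of which had been positive before, and the median was 0.136. TIMP1 turned positive, and ITGA2 and FERMT1 turned negative. The median was 0.127 without LBP replicate 2 and 0.284 without LBP replicate 1.

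Whether the LBP effect differed between irradiated and non-irradiated cells was tested as an interaction, LBP in irradiated minus LBP in non-irradiated cells. By edgeR 0 of 48 genes passed, where 0.0135% of all features did, 7 had an unadjusted p under 0.05, and DESeq2 called 0. The median difference over the 48 genes was 0.152, against 0.0054 over all features, and 36 of the 48 were positive. The 7 genes became 1 without vehicle replicate 1 or without LBP replicate 2, and 12 without LBP replicate 1, and the median was 0.065 without LBP replicate 2 and 0.255 without LBP replicate 1. HSPG2 had the largest, 0.50 ± 0.15 (adjusted p = 0.57), followed by FN1 at 0.49 ± 0.20 (adjusted p = 0.60). The effect of LBP on FN1, past the test in non-irradiated cells alone, was therefore not shown to differ between the settings, nor was that of the 5 genes called in irradiated cells alone. Both 12 Gy comparisons share libraries with both LBP comparisons, so their values are not independent. Averaged over both pretreatments, a contrast also added after the data had been seen, 12 Gy moved 0 of 48 genes past edgeR's test, where 0.561% of all features passed. Of the 48 genes 15 had an unadjusted p under 0.05, 41 were positive, the median was 0.109 and DESeq2 called 1, ITGA5. The 15 genes became 2 without LBP replicate 2 and 4 without vehicle replicate 2. Of the other gene lists, 1 of 27 regulators rose with 12 Gy without LBP: JUND, an AP-1 subunit, averaged 36.6 CPM in irradiated vehicle cells and 18.1 CPM in vehicle cells (1.01 ± 0.19, adjusted p = 0.042). After LBP edgeR called 0 genes of these lists with 12 Gy. The 20 other matrix components then had a median of 0.217, with 7 at an unadjusted p under 0.05 and 2 called by DESeq2.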

How the data were processed

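RNA sequencing of 10 HaCaT libraries was used. The authors deposited a table of whole-number counts per gene and a table of FPKM values for the same genes. The submitters' processing notes name HISAT2 and GRCh38 without versions; which program counted the reads, on which strand and against which gene models is not given in the sources used here. Of counts from 1 to 10, 59.7% were even, so some may count both mates of a pair, and counting error is then larger than the counts alone imply. No column belonged to any other sample. Replicates differed by more than counting noise (chi-square per degree of freedom 10.3 to 35.8).

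Groups were taken from the labels. The count test was edgeR (version 4.0.16, under R 4.3.3), with filterByExpr at a minimum count of 10, TMM scaling, and glmQLFit and glmQLFTest with 1 mean per group over all 10 libraries (6 residual degrees of freedom), with Benjamini-Hochberg adjustment over all 14799 features and a threshold of 0.05. CPM values are TMM scaled. Positions are from GENCODE (GRCh38), and promoters from RefSeq. Alternatives used limma 3.58.1 on log2(FPKM + 1) and log2(FPKM + 0.1), DESeq2 1.42.0, DESeq2 size factors, no filter, a length correction, the compared groups alone, a replicate block and each library left out. The test was checked on data simulated for LBP in irradiated cells (14637 genes): 39% of 100 genes changed by 0.4 on the log2 scale and 98% of 100 changed by 1 were called, with 8 false calls. The 48 genes and the other gene lists were chosen with earlier results of these data known. Values per library are given for genes called in a comparison of groups, and for others beside which they are set; LAMA3, SERPINE2, TNC and MMP9 were added because they passed in the averaged comparison, and ITGA3, HSPG2, DST, THBS1, MMP3, ADAMTS1, PLAU and ITGA5 after their values were seen. A few genes of the lists are not reported here.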

Additional observations from a re-analysis of the deposited data

How the results depend on the processing

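No fold change of a gene that was called changed sign under any alternative run. LBP in irradiated cells called 645 features and 5 of the 48 genes; with the compared groups alone it called 409 features, with DESeq2 1232 and 8 genes, and with limma 313 (FPKM + 1) or 304 (FPKM + 0.1) features and 3 genes in each. LBP in non-irradiated cells called 119 features and 1 gene; without a filter it called 188 and 3, with the compared groups alone 278 and 3, with DESeq2 378 and 3, and with limma 62 or 69 features and 0 genes. For 12 Gy without LBP the 65 features became 109 with the compared groups alone, 123 with DESeq2 and 37 or 41 with limma. For 12 Gy after LBP the 21 features became 45 without a filter, 36 with the length trend removed, 10 with the compared groups alone, 187 with DESeq2 and 10 or 11 with limma, and DESeq2 called 2 of the 48 genes. The interaction called 2 features, 7 without a filter and 4 with limma on log2(FPKM + 0.1). The averaged contrasts, added after the data had been seen, called 1025 features for LBP, against 566 and 588 with limma (10 genes, against 6 with FPKM + 1, 13 with DESeq2 and 12 with a replicate block or the length trend removed), and 83 for 12 Gy, against 214 with DESeq2, which called 1 gene. Leaving out 1 library gave 176 to 722 features and 0 to 7 genes for LBP in irradiated cells, 38 to 53 and 0 to 1 in non-irradiated cells, 25 to 35 and 0 to 0 for 12 Gy without LBP, 8 to 51 and 0 to 1 for 12 Gy after LBP, 0 to 5 and 0 to 0 for the interaction, 308 to 1138 and 3 to 11 for the averaged LBP effect, and 59 to 177 and 0 to 2 for the averaged 12 Gy effect. For FN1 in non-irradiated cells the call was lost without vehicle replicate 1, LBP replicate 1 or LBP replicate 2. For LAMB3 in irradiated cells it was lost under 8 of 14 alternatives, among them each irradiated vehicle library left out. The cause of these shifts was not tested. Same-numbered libraries correlated from -0.16 to 0.11 (13 pairs, 2 over 0.1). In groups of 2 libraries these values mirror each other: vehicle replicate 1 had -0.041 with LBP replicate 1 and 0.041 with LBP replicate 2. Whether same-numbered libraries share a batch therefore cannot be decided from them. With a replicate block 7 genes were called in irradiated and 2 in non-irradiated cells, and 1 feature in the interaction. On data simulated for LBP in irradiated cells, 39% of changes of 0.4 on the log2 scale were called, so a gene that did not pass may still have changed by that much.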
